A study of Mus musculus with 18 samples.

Results

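The solute carriers described here carry sugars, lactate, amino acids, fatty acids, zinc and iron across cell membranes. They are the genes of 13 Slc families (Slc1, 2, 5, 6, 7, 16, 27, 30, 36, 38, 39, 40 and 43), chosen by gene symbol alone: 126 of the 24498 genes in the table. Of these, 99 had a normalised read count of at least 10 in at least 3 libraries and were tested. The other 27 stayed below that, and they include Slc7a12, which had no read in any library, and Slc6a19, the kidney and gut carrier of neutral amino acids, which had 27 reads in all libraries together.

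The RNA came from mouse embryos at embryonic day 7.5, in which FoxA2, a pioneer transcription factor of the forkhead family, was fused to the red fluorescent protein tagRFP on both alleles. ΔHx embryos carried a FoxA2-tagRFP that lacks 10 amino acids of a helix, and WT embryos carried the intact FoxA2-tagRFP, so that WT too is a knock-in fusion and not an untouched allele. From each genotype, cells were sorted by fluorescence into High, Mid and Neg (FoxA2-tagRFP-negative) gates that had been set on wild-type and heterozygous embryos, and each of the 6 groups has 3 libraries named as biological replicates. Homozygous embryos, recognised by their tagRFP intensity and about 10 to a sorting, had their extra-embryonic portion removed and were pooled, the mice were of a mixed C57Bl6/J and CD-1 background, mothers were superovulated, embryos were not sexed, and the RNA of 1000 cells entered each unstranded SMART-Seq2 library.

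Solute carriers are membrane proteins that move a substrate down its gradient or couple it to sodium, protons or a second substrate. Several work only with a partner: Slc16a1 and Slc16a3 need a chaperone such as basigin (Bsg) or embigin (Emb) to reach the surface, and the Slc7 light chains pair with a heavy chain, Slc3a2 or Slc3a1. In the gastrulating mouse embryo, glucose and lactate are main fuels, and the visceral endoderm is the absorptive layer that takes up nutrients, iron and zinc before a placenta works.

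Reads counted in genes numbered 12302196 to 17194136 a library (median 15569192), over 15649 to 17917 detected genes, the fewest in ΔHx High replicate 3. The ribosomal RNA gene Rn45s took 23.7 to 44.0% of those reads, and the solute carriers took 0.450 to 1.10%. Foxa2 itself had 1848, 2078 and 2385 normalised reads in ΔHx High and 2483, 1742 and 1556 in WT High, against 62.5, 55.1 and 43.4 in ΔHx Neg and 40.6, 20.3 and 23.6 in WT Neg, with 547 to 1229 in ΔHx Mid and 621 to 871 in WT Mid; a count per gene does not check a deletion of 10 residues. Of 12 node and notochord markers (Foxa2 among them), the 11 tested all rose in High against Neg in both genotypes, with sums of 34665 to 36396 in ΔHx High, 29144 to 44486 in WT High, 2047 to 3725 in ΔHx Neg and 1946 to 3753 in WT Neg. Visceral endoderm markers (18 genes, 17 tested) rose in Mid against Neg for 16 in both genotypes, with sums of 59026 to 65576 in ΔHx Mid, 53569 to 63965 in WT Mid, 3185 to 5397 in ΔHx Neg and 3824 to 4782 in WT Neg. In High these sums were 2689 to 7522 for ΔHx and 5305 to 12123 for WT, and Apoc2 was at 0 in every ΔHx High library. Definitive endoderm markers rose in Mid against Neg for 10 of 11 in both genotypes, but their sums were higher still in High. These sums were 36869 to 37793 in ΔHx High, 39573 to 43044.5 in WT High, 25381 to 30121 in ΔHx Mid and 25049 to 31096 in WT Mid. In Neg they were 3134 to 3551 for ΔHx and 3057 to 3267 for WT. Blood and endothelium markers fell in High against Neg for 10 of 12 in ΔHx and 9 of 12 in WT. Of mesoderm markers 8 of 12 in ΔHx and 10 of 12 in WT fell in High against Neg. Of trophoblast markers 4 of 7 in ΔHx and 5 of 7 in WT fell, and of neural and epiblast markers 4 of 7 in each genotype. Of all genes tested, 21.5% rose and 21.1% fell in ΔHx High against Neg, and 22.6% rose and 21.8% fell in WT. In Mid against Neg 17.9% rose in ΔHx and 17.4% in WT. The mean neural and epiblast sums were not lower in High (2349 in ΔHx, 2398 in WT) than in Neg (2250 and 2037). Mean mesoderm sums were highest in Mid, at 18463 in ΔHx and 13640 in WT, beside 12895 and 12425 in Neg.

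Set against each other per kb of exon, 3 carriers stood far above the rest. Over all 18 libraries, the glucose carrier Slc2a1 averaged 4662 normalised reads per kb, the lactate and pyruvate carrier Slc16a1 averaged 4460, and the high-affinity glucose carrier Slc2a3 averaged 3739. The next, Slc39a7, a zinc carrier of the endoplasmic reticulum and Golgi, averaged 1070 per kb, but its exons lie largely under the same-strand transcript Gm20427, and the reads of the pair cannot be told apart. Then came the lactate exporter Slc16a3 with 527 per kb, the amino acid carrier Slc38a2 with 491 and the zinc importer Slc39a10 with 377. The leading members of the other families were the light chain Slc7a6 (293 per kb), the acyl-CoA synthetase Slc27a3 (210.2), the glutamine exchanger Slc1a5 (192), the taurine carrier Slc6a6 (159), the myo-inositol carrier Slc5a3 (157), the zinc carrier Slc30a5 (152), the amino acid carrier Slc43a1 (62.2), the iron exporter Slc40a1 (34.7) and the lysosomal amino acid carrier Slc36a1 (9.09).

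The weight of the top 3 differed between gates. Slc2a1, Slc16a1 and Slc2a3 together made up 67.7% of the summed level per kb in ΔHx High and 66.7% in WT High. The share was 64.6% in ΔHx Mid and 62.7% in WT Mid (52.9 to 70.0% over its libraries), and it was 48.2% in ΔHx Neg and 46.2% in WT Neg. The summed level per kb over the 126 genes was 22468 ± 2433 in ΔHx High and 22176 ± 3042 in WT High. It was 24966 ± 555 in ΔHx Mid and 26138 ± 5889 in WT Mid. In the Neg gate it was 15351 ± 463 for ΔHx and 14685 ± 721 for WT (mean ± SD, n = 3). The Neg libraries thus lay below every High and every Mid library. The Slc16 family alone made up 29.0 and 27.4% of the sum in ΔHx High and ΔHx Mid and 16.2% in ΔHx Neg, and 29.6 and 27.5% in WT High and WT Mid and 15.5% in WT Neg. System A and related amino acid carriers, the Slc38 family, went the other way, with 5.22% in ΔHx High, 4.97% in ΔHx Mid and 11.4% in ΔHx Neg, and 5.13% in WT High, 5.29% in WT Mid and 12% in WT Neg.

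**Figure D1:**
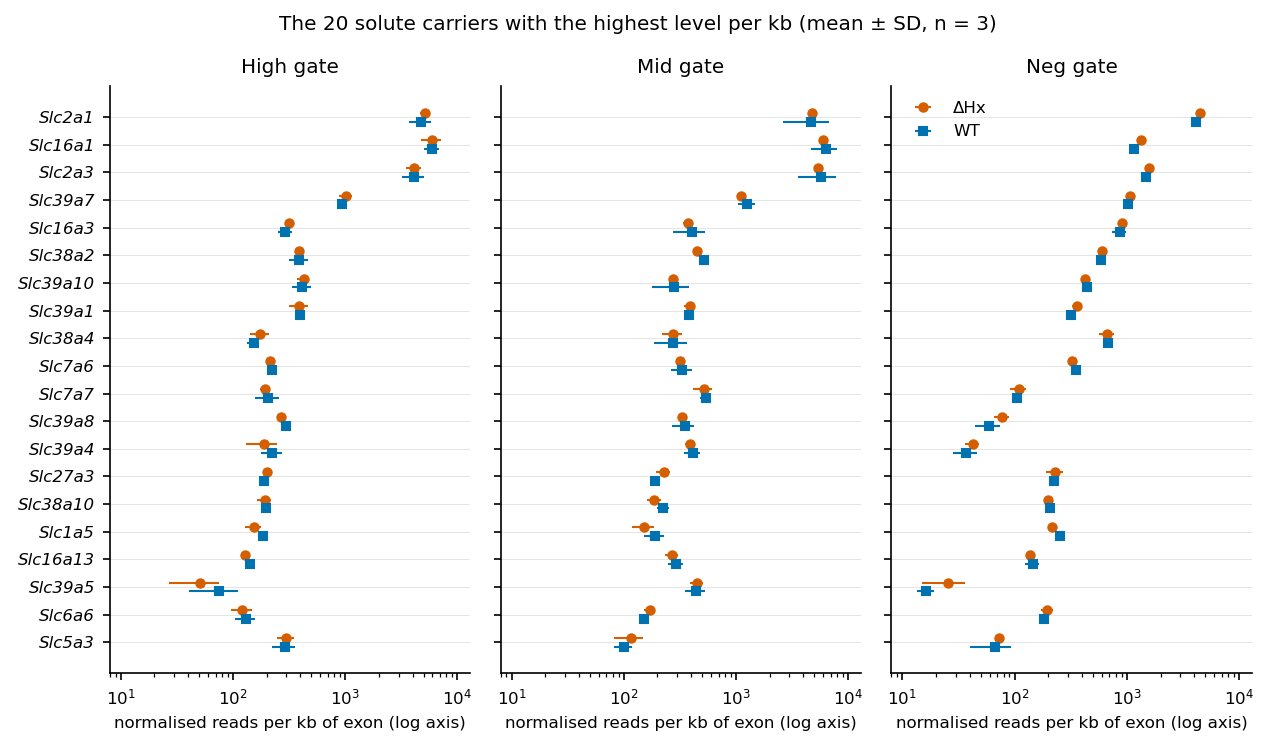
Level of the 20 solute carriers with the highest mean over all libraries, in normalised reads per kb of exon on a log axis, in the High, Mid and Neg gates (points are means, bars SD, n = 3; ΔHx circles, WT squares). Slc16a1 and Slc2a3 stand between 4108 and 6314 in High and Mid and between 1169 and 1572 in Neg, while Slc2a1 stands between 4117 and 5184 in all 6 groups.

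Gates were compared within each genotype, and genotypes within each gate, with limma on log2(value + 1) over 14711 genes; a gene is called when its Benjamini-Hochberg adjusted p is under 0.05, and every log2 change below is on that scale, which understates changes of low genes. The p-values measure the spread between these libraries. In High against Neg, 28 of the 99 tested carriers rose and 16 fell in ΔHx, beside 21.5 and 21.1% of all genes tested, and in WT 32 rose and 13 fell, beside 22.6 and 21.8%. In Mid against Neg, 32 rose and 10 fell in ΔHx, beside 17.9 and 16.5% of all genes, and in WT 39 rose and 11 fell, beside 17.4 and 15.4%. The carriers' median log2 change was 0.31 (ΔHx) and 0.28 (WT) in High against Neg and 0.23 (ΔHx) and 0.45 (WT) in Mid against Neg, while that of all genes tested lay within 0.02 of 0. Without WT Mid replicate 1, which stands apart in its parietal endoderm markers, 33 rose and 10 fell in WT Mid against WT Neg, with no share over all genes given for that fit. In bulk RNA of sorted cells, more cells of a type and more RNA per cell cannot be told apart.

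The gate comparisons of ΔHx and WT use separate libraries, and their calls were set against each other. For Mid against Neg, 29 carriers rose in both genotypes, 90.6% of those that rose in ΔHx and 74.4% of those that rose in WT. For High against Neg, 25 rose in both, 89.3% of the ΔHx calls and 78.1% of the WT calls. Of the falls, 7 were shared for Mid against Neg, 70.0% of the ΔHx calls and 63.6% of the WT calls, and 12 for High against Neg, 75.0% of the ΔHx calls and 92.3% of the WT calls. None was called in opposite directions. In 79 of 99 carriers the gate with the highest mean was the same in ΔHx and WT. No share over all genes tested is given beside these overlaps. They are therefore not shown to be particular to the carriers.

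Among the hexose and inositol carriers, Slc2a3 was the abundant one that differed between gates. It had 32460.2, 32199.9 and 24621 normalised reads in ΔHx High and 39878, 38419 and 39724 in ΔHx Mid, against 11654, 10891 and 11623 in ΔHx Neg. In WT it had 22251, 34538 and 32745 in High and 24962, 43948 and 55195 in Mid, against 9827, 10882 and 11796 in Neg. No High or Mid library overlapped a Neg library, and the log2 change was 1.37 (SE 0.20, limma adjusted p 2.11e-05) for ΔHx High and 1.44 (SE 0.20, limma adjusted p 1.12e-05) for WT High against Neg. In Mid against Neg it was 1.79 in ΔHx and 1.86 in WT (SE 0.20 each, limma adjusted p 2.19e-06 and 1.12e-06). Slc2a1 had no such call: its libraries ranged from 8584 to 23086, both in WT Mid, and the 4 log2 changes against Neg lay between 0.08 and 0.21 (SE 0.23, limma adjusted p 0.498 to 0.83).

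Slc2a2, the low-affinity glucose carrier of liver and yolk sac endoderm, was a Mid gene. It had 353, 296 and 267 normalised reads in ΔHx Mid and 136, 422 and 546 in WT Mid, against 1.12, 1.87 and 24.8 in ΔHx Neg and 6.16, 27.4 and 25.4 in WT Neg. The Mid libraries lay above all Neg libraries, with log2 changes of 5.82 (SE 0.84) in ΔHx and 4.18 (SE 0.84) in WT (limma adjusted p 3.52e-05 and 0.000874). In High it was nearly silent, with 1 read in the 3 ΔHx High libraries against 917 in ΔHx Mid, so that Mid over High was a ratio of 1065 (exact 95% interval 191 to 42105, counting error only).

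Other sugar carriers were High genes at low levels. Slc5a9, a sodium-coupled carrier of mannose and glucose, had 126, 94.2 and 70.1 normalised reads in ΔHx High and 113, 79.2 and 138 in WT High, against 3.35, 0.933 and 1.03 in ΔHx Neg and 3.7, 0 and 0 in WT Neg. High and Neg did not overlap in either genotype, and the log2 changes were 5.21 in ΔHx and 6.01 in WT (SE 0.66 each, limma adjusted p 3.47e-06 and 5.11e-07). WT Neg rests on 3 reads, and the ratio to WT High was 106 (exact 95% interval 36.1 to 519). Slc2a12, a glucose carrier whose exons overlap the opposite-strand gene Tbpl1, so that unstranded reads of the pair cannot be told apart, rose by 3.74 in ΔHx and 3.69 in WT (SE 0.63 each, limma adjusted p 8.6e-05 and 9.05e-05). The myo-inositol carriers both rose in High against Neg. The sodium-coupled Slc5a3 had 3908, 3096 and 2775 normalised reads in ΔHx High against 789, 817 and 787 in ΔHx Neg, and 3086, 2475 and 3917 in WT High against 1019.9, 440.1 and 722 in WT Neg, with log2 changes of 2.01 and 2.17 (SE 0.25 each, limma adjusted p 2.35e-06 and 8.07e-07). The proton-coupled Slc2a13 had log2 changes of 3.07 in ΔHx and 4.55 in WT (SE 0.85 each, limma adjusted p 0.00683 and 0.000243), with at most 44.6 normalised reads in a library, and the ΔHx call was lost without ΔHx Neg replicate 3 (adjusted p 0.054).

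The 2 main lactate carriers went opposite ways. Slc16a1, which moves lactate and pyruvate with a proton in either direction, had 30884, 28130.1 and 20242 normalised reads in ΔHx High and 27013, 25809.9 and 26444 in ΔHx Mid, against 6150.2, 6108 and 5654 in ΔHx Neg. In WT it had 22034, 27632 and 29892 in High and 20692, 27766 and 35379 in Mid, against 5204, 5093 and 5227 in Neg. Every High and Mid library was at least 20242 and no Neg library passed 6150.2. The log2 changes in High against Neg were 2.12 in ΔHx and 2.35 in WT, and in Mid against Neg 2.15 and 2.40 (SE 0.16 each; limma adjusted p between 8.6e-10 and 8.63e-09).

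Slc16a3, a carrier known for lactate export from glycolytic cells, was lower where Slc16a1 was higher. Its libraries had 1837, 1676 and 1554 normalised reads in ΔHx High and 2245, 1922 and 1838 in ΔHx Mid, against 5028, 5065 and 4381 in ΔHx Neg. In WT they had 1312, 1649 and 1728 in High and 1438, 2204 and 2788 in Mid, against 3885, 4674 and 5254 in Neg. High and Mid did not overlap Neg, and Slc16a3 fell by 1.51 (ΔHx) and 1.56 (WT) in High and by 1.27 (ΔHx) and 1.14 (WT) in Mid on the log2 scale (SE 0.17 each; limma adjusted p between 6.57e-07 and 5.64e-05). Per kb of exon, Slc16a1 stood at 5969 and Slc16a3 at 318 in ΔHx High, while in ΔHx Neg they stood at 1349 and 907.

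The chaperones of these carriers were read beside them. Emb had 23324, 23592 and 23442 normalised reads in ΔHx High against 8081, 9249 and 7274 in ΔHx Neg, and 25133, 23650.2 and 28401 in WT High against 8807, 7682 and 8708 in WT Neg. It rose by 1.52 (ΔHx) and 1.61 (WT) in High and by 1.54 (ΔHx) and 1.69 (WT) in Mid (SE 0.11 each; limma adjusted p between 1.24e-09 and 7.54e-09). Bsg was more even, with changes of 0.32 (ΔHx) and 0.33 (WT) in High (SE 0.08 each; limma adjusted p 0.00352 and 0.00247) and no call in Mid (adjusted p 0.96 and 0.143).

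**Figure D2:**
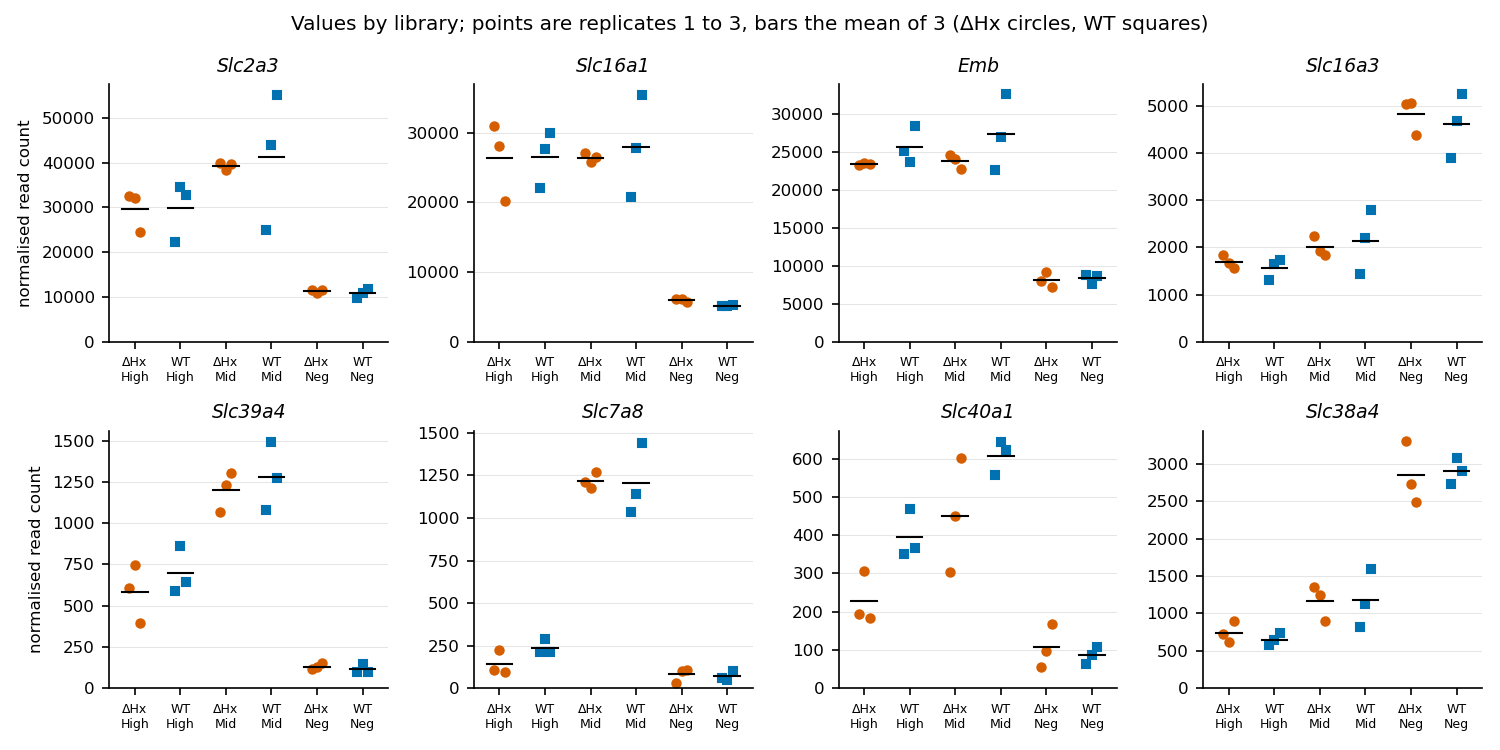
Normalised read counts by library of 7 solute carriers and the chaperone gene Emb (linear axes from 0; points are the 3 libraries of a group, bars their mean; ΔHx circles left of WT squares in each gate). Slc2a3, Slc16a1 and Emb are high in both sorted positive gates, Slc16a3 and Slc38a4 are highest in Neg, and Slc39a4, Slc7a8 and Slc40a1 have their highest means in Mid.

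Slc16 carriers were then counted as a family in Mid. Of 11 tested, 6 rose and 1 fell in Mid against Neg in each genotype, beside 17.9% up and 16.5% down of all genes in ΔHx and 17.4 and 15.4% in WT, and the same 7 genes made up both lists (Slc16a1, Slc16a9, Slc16a10, Slc16a11, Slc16a12 and Slc16a13, and Slc16a3 lower). Slc16a9, a carnitine carrier, had 195, 193 and 136 normalised reads in ΔHx Mid and 251, 224 and 158 in WT Mid, against 8.93, 10.3 and 11.4 in ΔHx Neg and 9.85, 6.08 and 9.06 in WT Neg. It rose by 3.96 in ΔHx and 4.50 in WT (SE 0.41 each, limma adjusted p 6.1e-07 and 9.84e-08), with an antisense gene over part of its exons. Slc16a10, which carries aromatic amino acids and thyroid hormone, had 583, 516 and 553 in ΔHx Mid and 427, 426 and 543 in WT Mid, against 166, 175 and 216 in ΔHx Neg and 97.3, 150.1 and 87.9 in WT Neg. Its log2 change was 1.57 in ΔHx and 2.08 in WT (SE 0.19 each, limma adjusted p 5.51e-06 and 1.4e-07). The creatine carrier Slc16a12 rose in both gates from almost nothing: in ΔHx its 3 Neg libraries held 2 reads against 156 in High, a ratio of 66.2 (exact 95% interval 18 to 552).

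Several amino acid exchangers were Mid genes. Slc7a8, a light chain for neutral amino acids, had 1211, 1175 and 1267 normalised reads in ΔHx Mid and 1033, 1142 and 1440.2 in WT Mid, against 33.5, 103 and 108 in ΔHx Neg and 62.8, 48.7 and 101 in WT Neg. The lowest Mid library stood at 1033 and the highest Neg library at 108, and the log2 changes were 4.06 in ΔHx and 4.12 in WT (SE 0.37 each, limma adjusted p 1.22e-07 and 8.65e-08). Slc7a9, the light chain of cystine and cationic amino acid uptake, had 338, 324 and 228 in ΔHx Mid and 244, 416 and 325 in WT Mid, against 12.3, 10.3 and 22.7 in ΔHx Neg and 7.39, 17.2 and 27.2 in WT Neg, with changes of 4.26 and 4.31 (SE 0.58 each, limma adjusted p 1.7e-05 and 1.39e-05). Its heavy chain partner Slc3a1 had at most 18.5 normalised reads in any library and was not tested.

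Slc7a7, which exports cationic amino acids, had 1454, 1601 and 2069 normalised reads in ΔHx Mid and 1836, 1972 and 1561 in WT Mid, against 295, 396 and 392 in ΔHx Neg and 388, 331 and 338 in WT Neg. It rose by 2.24 in ΔHx and 2.34 in WT (SE 0.16 each, limma adjusted p 8.75e-09 and 3.7e-09), and part of its exon sequence lies opposite Oxa1l. Slc43a2, a carrier of large neutral amino acids out of cells, rose by 1.67 in ΔHx and 1.65 in WT in Mid (SE 0.22 each, limma adjusted p 1.21e-05 and 1.28e-05). The shared heavy chain Slc3a2 rose in Mid by 0.61 in ΔHx and 0.60 in WT (SE 0.08 each, limma adjusted p 1.09e-05 and 1.21e-05). Slc7a5, the light chain for large neutral amino acids, was not called against Neg (limma adjusted p 0.0814 to 0.632).

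Other amino acid carriers were Neg genes. Slc7a3, a cationic amino acid carrier encoded on the X chromosome, had 90.3, 96.9 and 85.8 normalised reads in ΔHx High and 225, 191 and 259 in ΔHx Mid, against 1073, 1087 and 1177 in ΔHx Neg. In WT it had 88.7, 104 and 117 in High and 300.0, 312 and 319 in Mid, against 914, 1444 and 1199 in Neg. The 3 gates formed separate steps, and High against Neg fell by 3.60 in ΔHx and by 3.49 in WT (SE 0.16 each, limma adjusted p 1.18e-11 and 1.01e-11). Slc38a4, a system A carrier of neutral and cationic amino acids encoded by an imprinted gene, had 723, 613 and 898 in ΔHx High and 1352, 1252 and 896 in ΔHx Mid, against 3301, 2734 and 2494 in ΔHx Neg. In WT it had 573, 644 and 737 in High and 823, 1126 and 1587 in Mid, against 2733, 3073 and 2908 in Neg. It fell by 1.94 (ΔHx) and 2.16 (WT) in High and by 1.30 (ΔHx) and 1.35 (WT) in Mid (SE 0.20 each; limma adjusted p between 4.33e-08 and 5.85e-05). Its relatives Slc38a1 and Slc38a2, which accumulate glutamine and alanine with sodium, fell in High too, Slc38a1 by 0.60 in ΔHx and 0.69 in WT, and Slc38a2 by 0.65 in ΔHx and 0.60 in WT (limma adjusted p between 8.82e-05 and 0.000477). The glutamate carrier Slc1a3 fell in High by 1.42 in ΔHx and 1.38 in WT (SE 0.20 each, limma adjusted p 1.13e-05 and 1.52e-05). The glutamine exchanger Slc1a5 fell by less, 0.50 in ΔHx and 0.44 in WT (SE 0.16 each, limma adjusted p 0.0144 and 0.0261), calls that were lost in 3 and 6 of 16 alternatives (highest adjusted p 0.0799 and 0.0996). The taurine carrier Slc6a6 fell in High by 0.70 in ΔHx and 0.50 in WT (SE 0.15 each, limma adjusted p 0.00106 and 0.0122), the WT call being lost without WT High replicate 1 and with quantile normalisation (highest adjusted p 0.0952). The light chain Slc7a6 fell in High by 0.60 in ΔHx and 0.67 in WT (SE 0.11 each, limma adjusted p 0.000212 and 6.39e-05).

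In the same Slc38 family a pair of genes went up in High. Slc38a3, which moves glutamine in either direction, had 529, 528 and 553 normalised reads in ΔHx High and 517, 444 and 496 in WT High, against 72.6, 63.5 and 34.1 in ΔHx Neg and 53, 86.2 and 112 in WT Neg. High lay above every Neg library by a wide margin, with changes of 3.29 in ΔHx and 2.58 in WT (SE 0.28 each, limma adjusted p 2.88e-08 and 5.3e-07). Its Mid libraries had 93, 63.4 and 101 in ΔHx and 93.2, 114 and 133 in WT, and it was not called in Mid against Neg (limma adjusted p 0.0919 and 0.212). Slc38a8, also a glutamine carrier, rose by 3.00 in ΔHx and 2.53 in WT in High and by 2.15 and 1.30 in Mid (SE 0.25 each; limma adjusted p between 2.25e-08 and 0.000633). Of 11 genes of amino acid stress response and synthesis, 6 fell and 1 rose in ΔHx High against Neg, and 5 fell and none rose in WT, beside falls of 21.1 and 21.8% of all genes tested. The serine synthesis enzymes Psat1 and Phgdh fell by 1.40 and 0.76 in ΔHx and by 1.10 and 0.82 in WT (limma adjusted p between 3.43e-06 and 5.01e-05).

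In the Slc6 family of sodium- and chloride-coupled carriers, 3 of 10 tested rose in ΔHx Mid against Neg and 4 of 10 in WT, beside 17.9 and 17.4% of all genes tested. The 4 in WT include Slc6a15, whose call is lost without WT Mid replicate 1, and Slc6a2, which passed the filter on low values only through WT Mid. The creatine carrier Slc6a8, encoded on the X chromosome, had 94, 169 and 168 normalised reads in ΔHx Mid and 184, 121 and 112 in WT Mid, against 43.5, 57.9 and 38.2 in ΔHx Neg and 76.4, 49.7 and 43.5 in WT Neg. Mid lay above Neg in each genotype, with changes of 1.58 in ΔHx and 1.29 in WT (SE 0.39 each, limma adjusted p 0.00396 and 0.0147), and the WT call was lost without WT Mid replicate 1, WT Neg replicate 2 or WT Neg replicate 3 (highest adjusted p 0.072). The serotonin carrier Slc6a4 rose in Mid by 2.55 in ΔHx and 3.44 in WT (SE 0.68 each, limma adjusted p 0.00719 and 0.000743), from at most 5.16 normalised reads in a Neg library. The proton-coupled glycine and proline carrier Slc36a2 rose by 2.78 in WT High against Neg (SE 0.85, limma adjusted p 0.0122), a call lost without WT Neg replicate 1 (adjusted p 0.0812), and its change in ΔHx was 1.49 (SE 0.85, limma adjusted p 0.17).

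Of the fatty acid family, Slc27a1, Slc27a2 and Slc27a4, which take up and activate long-chain fatty acids, rose in High in both genotypes. Slc27a1 had 631, 648 and 749 normalised reads in ΔHx High against 176, 229.5 and 152 in ΔHx Neg, and 627, 573 and 635 in WT High against 181, 167 and 170.3 in WT Neg. It rose by 1.87 in ΔHx and 1.82 in WT (SE 0.16 each, limma adjusted p 2.58e-08 and 2.9e-08). Slc27a2 rose by 1.19 in ΔHx and 1.86 in WT (SE 0.19 each, limma adjusted p 4.07e-05 and 1.58e-07), and Slc27a4 by 0.90 in ΔHx and 0.76 in WT (SE 0.18 each, limma adjusted p 0.0004 and 0.00167). Slc27a4 also rose in Mid against Neg, by 1.03 in ΔHx and 1.01 in WT (limma adjusted p 0.000198 and 0.000228). Its means were 335 and 355 in Mid, beside 308 and 297 in High. In WT Mid against Neg, Slc27a1 rose by 0.56 and Slc27a2 by 1.03 (limma adjusted p 0.0113 and 0.000315). The most abundant of the family per kb, the acyl-CoA synthetase Slc27a3, was not called in any gate comparison (limma adjusted p 0.124 to 0.998). Of 9 other genes of fatty acid uptake and activation (Cd36 and Fabp and Acsl genes), 5 fell and none rose in ΔHx High against Neg, and 6 fell and 1 rose in WT, beside falls of 21.1% of all genes tested in ΔHx and 21.8% in WT. In Mid against Neg 3 rose and 1 fell in ΔHx and 4 rose and 1 fell in WT. Of all genes tested, 17.9% rose and 16.5% fell in ΔHx, and 17.4% rose and 15.4% fell in WT. The rises include the absorptive-cell binding proteins Fabp1 (2.96 in ΔHx, 2.92 in WT) and Fabp2 (3.13 in ΔHx, 3.05 in WT, limma adjusted p between 0.00623 and 0.00803). Summed over the 9 genes, however, the mean level was lower in Mid (4069 in ΔHx, 4546 in WT) than in Neg (5335 and 5490).

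Among the zinc importers, 4 of 13 tested Slc39 genes rose and 1 fell in ΔHx Mid against Neg, and 6 rose and 2 fell in WT, beside rises of 17.9 and 17.4% and falls of 16.5 and 15.4% of all genes tested. Slc39a4, the importer that visceral endoderm and intestine use to take up zinc, had 608, 748 and 397 normalised reads in ΔHx High and 1071, 1229.6 and 1303 in ΔHx Mid, against 115, 127 and 153 in ΔHx Neg. In WT it had 589, 865 and 643 in High and 1079.5, 1489 and 1271 in Mid, against 101, 148 and 97.8 in Neg. The gates did not overlap, and Mid against Neg rose by 3.19 in ΔHx and 3.47 in WT (SE 0.21 each, limma adjusted p 2.96e-09 and 7.79e-10). Slc39a5, an importer of the basolateral face of epithelia, had 876, 980.0 and 1128 in ΔHx Mid and 792, 1182 and 952 in WT Mid, against 32.4, 79.3 and 59.9 in ΔHx Neg and 32, 33.5 and 43.5 in WT Neg, and rose by 4.18 and 4.70 (SE 0.34 each, limma adjusted p 3.45e-08 and 5.98e-09). Slc39a8, which carries zinc, manganese and iron, had 2561, 2519 and 2538 in ΔHx Mid and 1993, 3104 and 2906 in WT Mid, against 586, 509 and 693 in ΔHx Neg and 384, 587 and 397 in WT Neg. It rose in Mid by 2.10 in ΔHx and 2.55 in WT and in High by 1.81 and 2.35 (SE 0.16 each; limma adjusted p between 9.13e-10 and 4.18e-08). Slc39a2, a plasma membrane importer, rose in High by 3.48 in ΔHx and 2.60 in WT (SE 0.54 each, limma adjusted p 3.71e-05 and 0.000628). Other importers fell: Slc39a6 in High by 0.92 in ΔHx and 0.86 in WT (SE 0.21 each, limma adjusted p 0.00167 and 0.00262), and Slc39a10 in Mid by 0.63 in ΔHx and 0.70 in WT (SE 0.18 each, limma adjusted p 0.0124 and 0.006).

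On the export side, Slc30a1, which moves zinc out of the cell, had 130.3, 168 and 216 normalised reads in ΔHx Mid and 216, 165 and 76.7 in WT Mid, against 59.2, 87.7 and 89.8 in ΔHx Neg and 66.5, 83.1 and 45.3 in WT Neg. Mid and Neg overlapped in WT but not in ΔHx, and the calls (1.10 in ΔHx and 1.14 in WT, SE 0.37 each, limma adjusted p 0.0263 and 0.0226) were lost in 4 and 5 of 16 alternatives (highest adjusted p 0.113 and 0.126). Slc30a3, which loads zinc into vesicles, was a High gene, with 207, 224 and 274 in ΔHx High and 299.7, 182 and 188 in WT High, against 19, 26.1 and 14.5 in ΔHx Neg and 12.3, 25.3 and 7.25 in WT Neg. It rose by 3.53 in ΔHx and 3.94 in WT (SE 0.40 each, limma adjusted p 9.7e-07 and 2.12e-07). Slc30a5, which loads zinc into the secretory pathway, fell in High by 0.44 in ΔHx and 0.54 in WT (SE 0.11 each, limma adjusted p 0.00309 and 0.00049). Slc30a2, another vesicle loader, fell by 1.40 in WT Mid against Neg (SE 0.40, limma adjusted p 0.0108), a call lost without WT Mid replicate 2 or WT Neg replicate 1 (highest adjusted p 0.0597), and its change in ΔHx Mid was -0.17 (limma adjusted p 0.779). Of the zinc-binding metallothioneins, Mt1 had 3231, 3311 and 3801 in ΔHx Mid and 2015, 2292 and 1764 in WT Mid, against 507, 528 and 520.3 in ΔHx Neg and 384, 431 and 365 in WT Neg. Mt1 rose by 2.73 in ΔHx and 2.36 in WT, and Mt2 by 2.35 and 2.09 (limma adjusted p between 1.13e-08 and 2.78e-07). Mtf1, the third of 3 tested genes of this list, was not called in Mid. The list's summed level was not raised in Mid alone. Its WT mean was 3232 for the High libraries, close to 3248 for Mid, while Neg had 811. For ΔHx, Mid stood highest with a mean of 5475, followed by High with 3383, and Neg had 1077.

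Metallothionein genes and Slc30a1 are known targets of the zinc-sensing factor Mtf1, whose metal response elements share the cores TGCGCNC and TGCACNC. Both strings of letters were searched, on both strands, in RefSeq windows of 300 bases (250 before and 50 after the annotated start, GRCm38.p6). Of the 126 carriers, 91 had a window, 121 in all. TGCGCNC was in 22 of the 121 (18.2%), beside 15.4% of all 32851 windows, and TGCACNC in 17 (14.0%), beside 12.6%. The promoters of Slc30a1 (chr1:191906531-191906830, plus strand) and Slc39a5 (chr10:128401175-128401474, minus strand) are shown because they are an exporter and an importer of zinc that were higher in Mid. Capitals mark the matches, here read on the reverse strand. Slc39a5 has another window (chr10:128400417-128400716, minus strand), not printed, which held no match to either string. A match is a string of letters and not a bound site.
Slc30a1: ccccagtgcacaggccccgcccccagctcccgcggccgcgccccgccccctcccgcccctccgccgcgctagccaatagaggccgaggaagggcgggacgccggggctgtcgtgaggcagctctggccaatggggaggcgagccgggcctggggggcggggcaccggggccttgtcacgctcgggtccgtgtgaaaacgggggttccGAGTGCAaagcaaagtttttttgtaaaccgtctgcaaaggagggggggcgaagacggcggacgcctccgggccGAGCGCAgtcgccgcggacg
Slc39a5: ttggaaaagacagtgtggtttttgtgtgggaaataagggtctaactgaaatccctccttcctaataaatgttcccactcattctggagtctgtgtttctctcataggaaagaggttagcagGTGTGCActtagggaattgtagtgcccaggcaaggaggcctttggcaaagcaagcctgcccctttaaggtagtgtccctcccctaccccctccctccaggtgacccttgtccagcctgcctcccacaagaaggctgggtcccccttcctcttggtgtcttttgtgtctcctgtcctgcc

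Slc40a1, ferroportin, the known exporter of iron from cells, had 194, 307 and 185 normalised reads in ΔHx High and 303, 449.5 and 601 in ΔHx Mid, against 55.8, 97 and 167 in ΔHx Neg. In WT it had 350.1, 469.7 and 367 in High and 556, 643 and 622 in Mid, against 64, 87.2 and 109 in Neg. No High or Mid library overlapped its genotype's Neg libraries. In Mid it rose by 2.15 in ΔHx and 2.82 in WT, and in High by 1.19 and 2.20 (SE 0.32 each; limma adjusted p between 1.64e-06 and 0.00506). Of 10 tested genes of iron handling, 3 rose and 2 fell in ΔHx Mid against Neg, and 3 rose and 1 fell in WT. Of all genes tested, 17.9% rose and 16.5% fell in ΔHx and 17.4% rose and 15.4% fell in WT, so that the falls are near that share. Transferrin (Trf), a member of the visceral endoderm list too, rose by 4.41 in ΔHx and 3.96 in WT, the ferritin heavy chain Fth1 by 1.00 in ΔHx and 1.03 in WT, and the transferrin receptor Tfrc fell by 0.74 in ΔHx and 0.76 in WT (limma adjusted p between 5.47e-09 and 0.000296).

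The carriers that were highest in Mid shared that gate with the visceral endoderm markers, whose sums are given above. In ΔHx High the mean marker sum was 4573, near the 4529 of ΔHx Neg. Slc2a2 had a mean of 0.302 in ΔHx High and 9.25 in ΔHx Neg, but Slc39a4 had 584 and 132. The part of the markers in these differences was not tested. Of 11 other transporters of the same kinds of substrate, 3 rose in ΔHx Mid against Neg and 2 in WT, beside 17.9 and 17.4% of all genes tested, a share that the WT count does not stand apart from. The genes that rose in both genotypes were the phosphate carrier Slc34a2 (4.31 in ΔHx, 4.77 in WT; limma adjusted p 2.53e-06 and 5.99e-07) and the peptide carrier Slc15a1 (2.75 in ΔHx, 2.08 in WT; limma adjusted p 0.00166 and 0.012).

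**Figure D3:**
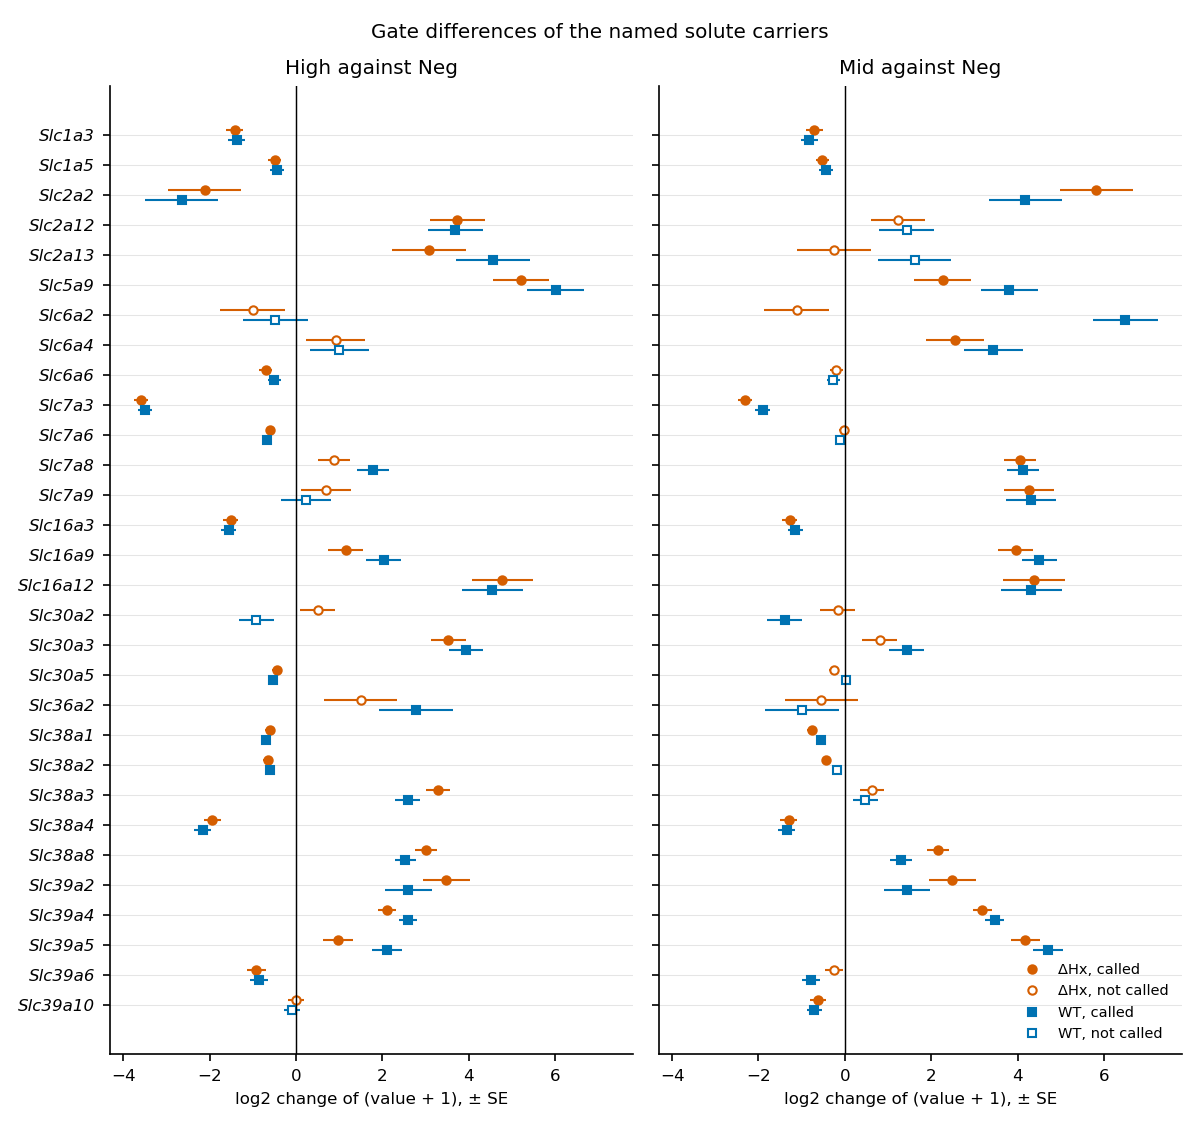
Log2 change of (value + 1), ± SE, in High against Neg and in Mid against Neg for the solute carriers named by rule in WT (30 genes, ordered by family; ΔHx circles above WT squares; filled symbols are called at adjusted p under 0.05). The symbols of ΔHx and WT lie close together for Slc7a3, Slc16a3 and Slc38a4 in both panels, and Slc6a2 is at the far right in WT Mid with an open ΔHx symbol below 0.

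High and Mid were set against each other within each genotype. In ΔHx 15 carriers were higher in High and 26 lower, beside 13.3 and 12.3% of all genes tested, and in WT 17 were higher and 26 lower, beside 12.1 and 12.4%. Without WT Mid replicate 1, in WT 11 were higher and 23 lower, with no share over all genes given for that fit. The calls shared by both genotypes were 13 higher and 17 lower, 86.7 and 65.4% of the ΔHx calls and 76.5 and 65.4% of the WT calls. Beside these shared calls, too, no share over all genes is given. Slc38a3, Slc7a4, Slc5a3 and Slc27a1 were higher in High, by 2.66, 3.02, 1.40 and 1.32 in ΔHx and by 2.10, 2.39, 1.52 and 1.26 in WT (limma adjusted p between 1.67e-06 and 0.000526). Slc2a2, Slc7a9, Slc39a5, Slc16a9 and Slc7a8 were lower in High, by log2 changes of -7.94, -3.57, -3.21, -2.81 and -3.17 in ΔHx and -6.82, -4.07, -2.60, -2.47 and -2.34 in WT (limma adjusted p between 1.58e-06 and 0.000174). Slc7a4, a relative of the cationic amino acid carriers with no established transport, shares exon sequence with the opposite-strand gene P2rx6, and reads of that pair cannot be told apart either. The fructose carrier Slc2a5 was higher by 1.52 in WT High than in WT Mid (SE 0.40, limma adjusted p 0.00856), a call lost without WT Mid replicate 2 (adjusted p 0.0567), and its change in ΔHx was 0.52 (limma adjusted p 0.371).

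Genotypes were then compared within each gate. In High, limma called 0 of the 99 carriers, beside 0.122% of all genes tested. An unadjusted limma p under 0.05 was found for 12 (12.1%), beside 7.86% of all genes. There edgeR called 0 and DESeq2 called 1, and the share of all genes that DESeq2 called is not given. The smallest p belonged to Slc1a4, a carrier of alanine, serine and cysteine, with 438, 359 and 491 normalised reads in ΔHx High against 700.1, 631 and 593 in WT High. These did not overlap, with a log2 change of -0.59 (SE 0.15, limma adjusted p 0.198). It was the gene that DESeq2 called (adjusted p 0.0457). Next by p were Slc6a8 (log2 change -1.28), Slc7a11 (1.59) and the zinc and iron importer Slc39a14 (-1.02), with limma adjusted p from 0.332 to 0.431. In Neg, limma called 0 carriers, beside 0.245% of all genes. An unadjusted limma p under 0.05 was found for 8 (8.08%), beside 4.17% of all genes, and edgeR and DESeq2 called 0. Slc16a10 had the smallest p there, with 166, 175 and 216 in ΔHx Neg against 97.3, 150.1 and 87.9 in WT Neg (log2 change 0.76, SE 0.19, limma adjusted p 0.213). Slc38a6, an amino acid carrier, followed with 0.97 (limma adjusted p 0.481).

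In Mid, limma called 1 carrier, lower in ΔHx, beside 0.401% of all genes tested. An unadjusted limma p under 0.05 was found for 16 (16.2%), beside 7.96% of all genes. There edgeR called 1 and DESeq2 called 4, and the shares of all genes that these tools called are not given. The carrier that limma called was Slc6a2 (chr8:92960079-93001667, plus strand, GENCODE M21 on GRCm38), the noradrenaline carrier of sympathetic neurons and placenta. It had 1.9, 0 and 1.1 normalised reads in ΔHx Mid, against 482.2, 165.2 and 160.4 in WT Mid. No other library passed 4.1, so that the 3 WT Mid libraries stood alone. The 3 ΔHx Mid libraries held 3 reads and the WT Mid libraries 709, and WT over ΔHx was a ratio of 241 (exact 95% interval 82.0 to 1170, counting error only). Slc6a2 had 10 or more in exactly 3 libraries, those of WT Mid, so that it passed the filter on low values only through the group in which it is high; Slc1a7, with 2 such libraries, was the carrier just outside. The test is therefore given as a description of this gene and not as support for a genotype difference among the carriers. The log2 change was -7.00 (SE 0.76, limma adjusted p 0.000131; edgeR adjusted p 0.000125; DESeq2 adjusted p 6.95e-12), with limma adjusted p 0.000161 where no filter was applied, and -6.48 without WT Mid replicate 1 (limma adjusted p 0.000897).

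Carriers next in line were not called by limma. Slc7a1, the general cationic amino acid carrier, had 108.9, 119.0 and 126.6 in ΔHx Mid against 774.0, 159.5 and 242.4 in WT Mid, with a log2 change of -1.39 (SE 0.37, limma adjusted p 0.147). Slc2a10, a glucose carrier, had 26.1, 17.6 and 0 in ΔHx Mid against 160.3, 47.8 and 37.5 in WT Mid (-3.08, SE 0.83, limma adjusted p 0.148). Slc6a15, a neutral amino acid carrier, had 48.4, 66.3 and 69.6 in ΔHx Mid against 364.4, 83.1 and 126.4 in WT Mid (-1.35, SE 0.41, limma adjusted p 0.236). The groups did not overlap in any of these genes, and DESeq2 called all 3, with adjusted p of 0.00206, 0.0189 and 0.0179. Each had its highest value in WT Mid replicate 1; without it, the limma log2 changes were -0.73, -2.45 and -0.75 (adjusted p 0.458, 0.495 and 0.679). Slc6a15 and Slc39a14 were also called higher in WT Mid than in WT Neg, by 1.35 and 1.24, and without WT Mid replicate 1 both calls were lost (0.74 and 0.91, limma adjusted p 0.134 and 0.074), while Slc7a1 went to 0.81 (limma adjusted p 0.0242) beside 1.47 with it.

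The parietal endoderm markers, extracellular matrix genes such as Lama1, Col4a1 and Sparc, moved with these genes. None of the 12 was at 0 in any group, and their sums were 21146, 20487 and 26500 in ΔHx Mid against 270825, 46056 and 70828 in WT Mid. Of the 12, 9 were called lower in ΔHx Mid than in WT Mid, beside 0.401% of all genes tested called in either direction. All 12 were called higher in WT Mid than in WT Neg, beside 17.4% of all genes tested. No fit without WT Mid replicate 1 is given for these markers. In the other groups the sums were 11992 to 13931 in ΔHx High, 13201 to 16470 in WT High, 10874 to 11489 in ΔHx Neg and 11217 to 12005 in WT Neg. WT Mid replicate 1 was highest both for the markers and for Slc6a2, Slc7a1, Slc2a10 and Slc6a15 (the part of the marker difference in the carriers' difference was not tested). Fabp3, a fatty acid binding protein of the uptake list above, was also highest in WT Mid replicate 1, with 27.9, 18.5 and 43.3 in ΔHx Mid against 1392, 109 and 216 in WT Mid (log2 change -3.46, SE 0.62, limma adjusted p 0.0135). For Fabp3, too, no fit without that library is given.

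**Figure D4:**
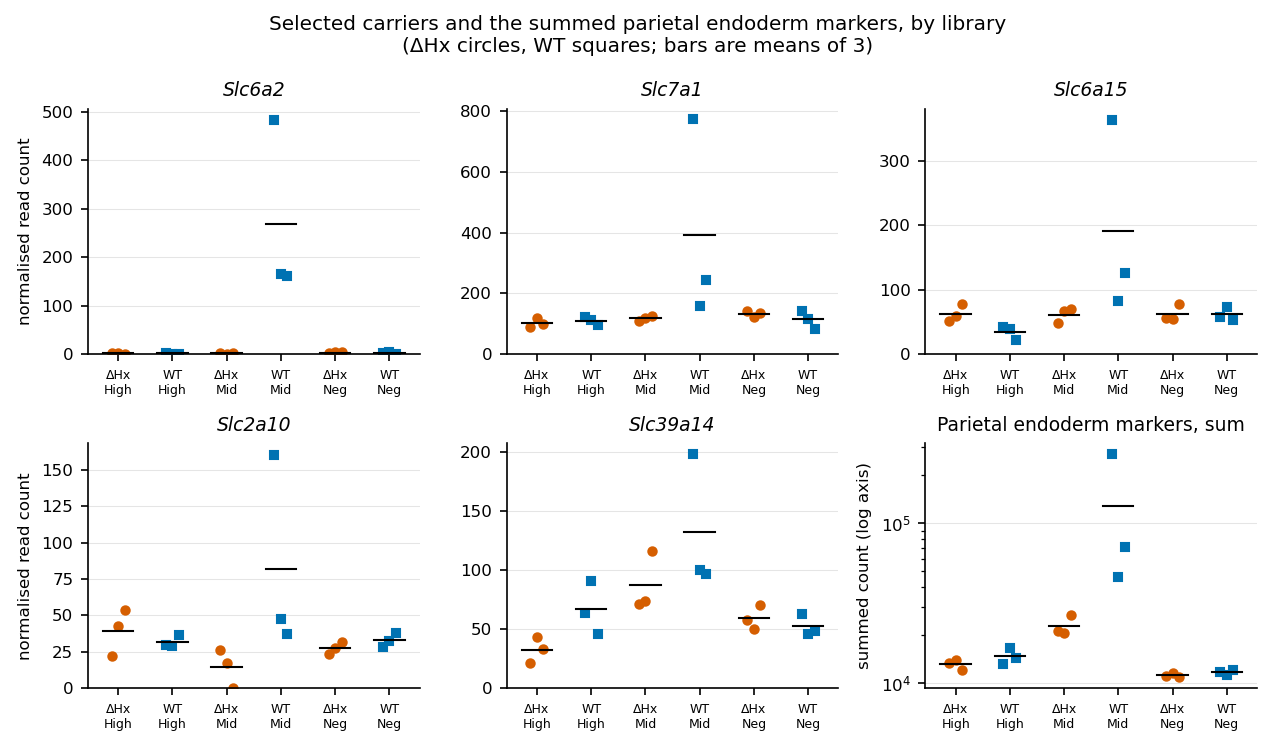
Normalised read counts by library of Slc6a2, Slc7a1, Slc6a15, Slc2a10 and Slc39a14 (linear axes from 0), and the summed normalised read count of 12 parietal endoderm markers (log axis); points are libraries, bars means of 3, ΔHx circles left of WT squares. WT Mid replicate 1 is the highest point in each panel, and Slc6a2 is near 0 outside WT Mid.

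Averaged over the 3 gates, limma called 2 carriers higher and 1 lower in ΔHx, beside 0.843% of all genes tested. Here edgeR called 1 and DESeq2 4, again without a share of all genes for these tools. Slc7a11, the cystine and glutamate exchanger that feeds glutathione synthesis, had 81.6, 79.7 and 35.5 normalised reads in ΔHx High against 31.2, 14.6 and 16.8 in WT High. It had 46.5, 48.8 and 14.8 in ΔHx Mid against 23.3, 5.73 and 9.59 in WT Mid. In Neg it had 56.9, 49.5 and 43.4 for ΔHx against 11.1, 17.2 and 24.5 for WT. The genotypes did not overlap in High or Neg and overlapped in Mid. The mean log2 change was 1.53 (SE 0.31, limma adjusted p 0.0189; edgeR adjusted p 0.0152), and the call was lost without ΔHx Mid replicate 2 (adjusted p 0.0515) or without ΔHx Neg replicate 1 (adjusted p 0.0548). Slc16a10 rose by 0.48 (SE 0.11, limma adjusted p 0.0455), a call lost in 18 of 28 alternatives, edgeR among them (highest adjusted p 0.104). Slc6a2, low in all but WT Mid, was the gene called lower (-2.10, SE 0.44, limma adjusted p 0.0228), lost in 8 of 28 alternatives, among them edgeR and the fit without WT Mid replicate 1 (highest adjusted p 0.16).

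Of 5 sex-linked genes, the 4 on the Y chromosome were called higher in ΔHx in the mean of the gates and none was called lower. Embryos were not sexed, so the sexes of the pools and the genotype cannot be told apart for any carrier, on whichever chromosome. Carriers encoded on the X chromosome include Slc6a8, Slc6a14, Slc7a3 and Slc38a5, while Slc7a11 and Slc16a10 are autosomal. Whether the sexes of the pools bear on any of them was not tested.

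The promoter of Slc7a11 (chr3:50443564-50443863, minus strand, RefSeq, GRCm38.p6) is shown because it is 1 of 3 carrier windows with a letter match to the forkhead core TGTTTAC on either strand. That string was in 3 of the 121 carrier windows (2.48%) beside 3.65% of all windows, and the variant TATTTAC in 0 of 121 beside 3.04%. Neither string was in the 42 windows of the 30 carriers with a window that rose in WT Mid against WT Neg. Capitals mark the match.
Slc7a11: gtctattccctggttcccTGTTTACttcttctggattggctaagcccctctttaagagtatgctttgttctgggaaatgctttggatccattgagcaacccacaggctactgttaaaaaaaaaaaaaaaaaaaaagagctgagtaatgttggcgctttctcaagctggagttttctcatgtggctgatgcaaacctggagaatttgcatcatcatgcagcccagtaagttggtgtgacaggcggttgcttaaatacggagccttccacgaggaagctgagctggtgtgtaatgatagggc

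Whether the genotype difference itself changed from gate to gate was tested in the same fit. For High against Neg, limma called 0 carriers, beside 0% of all genes tested. An unadjusted limma p under 0.05 was found for 8 (8.08%), beside 3.15% of all genes, and edgeR and DESeq2 called 0. For Mid against Neg limma called 1, beside 0.0068% of all genes, and for High against Mid 1, beside 0.0136%. Those shares stand for 1 and 2 genes, with the called carrier itself among them. That carrier passed the filter on low values only through WT Mid, so the counts describe this gene and not the carriers. Both calls were Slc6a2, with a difference of log2 changes of -7.62 for Mid against Neg (limma adjusted p 0.0133) and 7.09 for High against Mid (limma adjusted p 0.0359). They were lost in 7 and 12 of 22 alternatives, with edgeR and with a pseudocount of 0.5 among them (highest adjusted p 0.134 and 0.277).

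**Figure D5:**
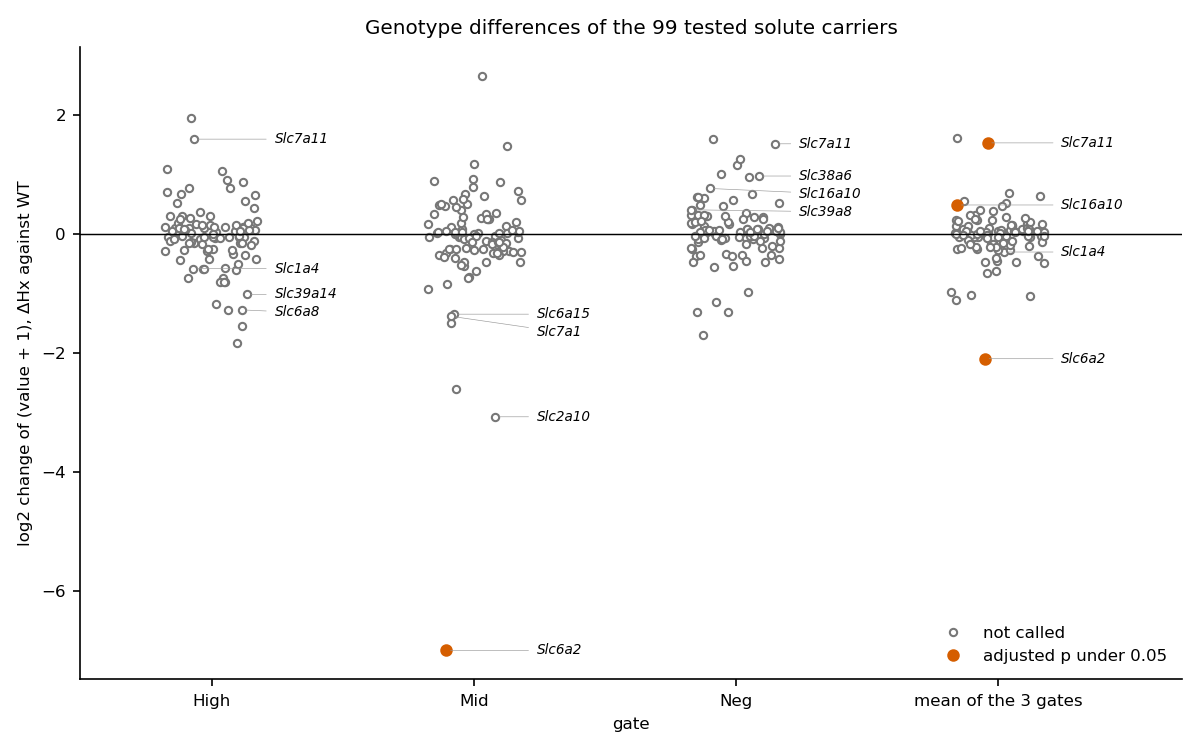
Log2 change of (value + 1), ΔHx against WT, of the 99 tested solute carriers in the High, Mid and Neg gates and in the mean of the 3 gates; each point is a gene, spread sideways at random, and filled points are called. Slc6a2 at -7.00 in Mid is the called point within a gate, and Slc7a11 (1.53), Slc16a10 (0.48) and Slc6a2 (-2.10) are called in the mean.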

How the data were processed

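RNA of 1000 sorted cells per library was sequenced as 75-bp single-end reads from SMART-Seq2 libraries, per the labels' protocols. The authors deposited 1 table of signal values, 1 per gene and library and with no pooled replicates, whose low values fall on equal steps: read counts divided by 1 factor per library. The mm10 genome and the tools HTSeq 0.6.1, STAR 2.5.2a, DESeq2 and DESeq are named in the submitters' processing notes; the annotation used for counting is not given in those notes or the labels. Whole read counts were recovered from the deposited values (440964 of 440964 values whole within 1e-06 reads), so 1 read was worth 0.825 to 1.37. The counter's 5 summary lines were left out; they held reads with no feature (7.17 to 12.1% of all counted reads), ambiguous ones (0.495 to 0.756%) and reads aligned more than once (37.7 to 41.3%). No column was unused (0).

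The 14711 genes that reached 10 in 3 or more libraries entered limma 3.58.1 (R 4.3.3) with a trend on log2(value + 1), all 6 groups in 1 fit and no block, with Benjamini-Hochberg adjustment over all tested genes at 0.05. Alternatives were pseudocounts of 0.5 and 5, no filter, a filter at 50, equal totals without Rn45s, quantile normalisation, the compared groups alone, a replicate block, each library left out, and edgeR 4.0.16 and DESeq2 1.42.0 on the recovered reads. Intervals of read ratios are exact and cover counting error only. Exon lengths and overlaps came from GENCODE M21, promoters from RefSeq.

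Genes were named by rule: those called between genotypes (or the smallest p, up to 4 a comparison), up to 10 rises and 10 falls in each WT gate comparison with a mean of at least 20 and no overlap, the highest per kb in each family, and a list of 22 well-known carriers. Members, lists and tests were chosen with earlier results of these data known. A gene outside the rule is named only for its partners or family.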

Additional observations from a re-analysis of the deposited data

Results flagged for a closer look

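The genotype effect on Slc6a2, the noradrenaline carrier, was called different between gates by a test of the difference itself, but this gene passed the filter on low values only through WT Mid, the group in which it is high. The log2 change of ΔHx against WT in Mid minus that in Neg was -7.62 (limma adjusted p 0.0133), and that in High minus that in Mid was 7.09 (limma adjusted p 0.0359). The Mid against Neg call was kept in 15 of 22 alternatives and the High against Mid call in 10 of 22. Where no filter was applied, the limma adjusted p was 0.0153 for Mid against Neg and 0.0408 for High against Mid. Both rest on the 3 WT Mid libraries, of which replicate 1 was the highest, and on at most 4.1 normalised reads in every other library.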

How the results depend on the processing

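No result by which a gene was named in a comparison reversed under any alternative run. Over all pairs of such a result and an alternative, 1206 stayed on their side of the threshold, 71 calls were lost and 8 were gained. Other results of named genes, those of the ΔHx gate comparisons among them, are outside this tally. Carriers called between ΔHx and WT: in High 1 with DESeq2 against 0; in Mid 4 with DESeq2 and 1 to 3 with a library left out, against 1; in Neg 0 to 1 with a library left out, against 0; in the mean of the gates 1 with edgeR and 0 to 4 with a library left out, against 3. For the difference of genotype effects, Mid against Neg gave 0 with a pseudocount of 0.5, with a filter at 50 and with edgeR, and 0 to 1 with a library left out, against 1. High against Mid gave 0 with a pseudocount of 0.5, with a filter at 50, with the compared groups alone and with edgeR, 2 with DESeq2, and 0 to 1 with a library left out, against 1. Total gate counts stayed within 1.5 times, from 36 to 40 in ΔHx Mid against Neg (42) and 39 to 48 in WT Mid against Neg (50) with a library left out. By direction, the carriers higher in WT High than in WT Mid went to 11 without WT Mid replicate 1, against 17. Single calls were less stable than totals. Those kept in every alternative were 34 of 44 in ΔHx and 35 of 45 in WT for High against Neg. They were 29 of 42 and 32 of 50 for Mid against Neg, and 27 of 41 and 27 of 43 for High against Mid. Equal totals without Rn45s moved the median of all genes in High against Neg to 0.111 in ΔHx and 0.128 in WT, and 34 carriers rose and 13 fell in ΔHx, 35 and 11 in WT. These counts carry that shift of all genes and are not shown to be particular to the carriers. Replicate numbers are not stated to pair libraries, and deviations of same-numbered libraries correlated by -0.171 to 0.291, in no comparison above 0.1 for every pair. With a replicate block, 44 carriers were called in ΔHx and 45 in WT in High against Neg, 43 and 49 in Mid against Neg, 40 and 39 in High against Mid, 1 between genotypes in Mid, and 2 in the mean of the gates. No share over all genes is given beside the carrier counts of any alternative. The 1000-cell input and 1 read worth up to 1.37 limit carriers with few reads.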
